A study of Mus musculus with 15 samples.

Results

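The proteasome genes on these arrays were taken as every gene whose symbol begins with Psma, Psmb, Psmc or Psmd followed by a digit, which gave 40 genes of the 20972 with a symbol. They comprised 19 genes of the core particle, 20 counted with the regulatory cap, and Psmc3ip. Psmc3ip encodes a recombination cofactor and not a proteasome subunit, although its symbol matches. The 20 include Psmd5, Psmd9 and Psmd10, assembly chaperones of the cap base, in every cap count and median below. The cap subunits Adrm1 and Sem1, whose symbols do not match, are in the list of genes around the particle. Each gene was represented by its brightest hemibrain probe. Psma8, the testis-specific alpha subunit, and Psmb11, the thymus-specific catalytic subunit, were well above background on 0 of 15 arrays and were not tested, so 38 genes entered the comparisons (17 core, 20 cap and Psmc3ip). Of these, 36 were well above background on all 15 arrays, the core gene Psmb2 on 13 and Psmc3ip on 9.

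The study asked how the balance of polyunsaturated fatty acids in the diet relates to transcripts in the brain. Left hemibrain RNA of male C57BL/6j mice was measured on 15 Agilent 2-colour arrays, 5 per diet. The enriched diet (ERD) held n-3 and n-6 fatty acids at 7:1, the balanced diet (BLD) at 1:1 and the standard laboratory diet (STD) at 1:6, at equal calories, and each was fed from 3 weeks of age for 24 weeks. All mice were of this strain and sex, no other treatment is named, and the diets are set apart by the diet recorded for each sample, since every title carries the word control. A hemibrain is a mixture of all cell types of the left side of the brain. Hemibrain RNA carried Cy5 and a common reference pooled from 11 mouse cell lines carried Cy3 on every array, so every value below is a log2 ratio of hemibrain over reference, and a difference between diets is a difference of such ratios. The labels do not state outright that each array is a different animal. P-values therefore measure the spread between these arrays.

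The proteasome is the barrel-shaped protease that degrades proteins tagged with ubiquitin. Alpha rings close both ends of the core barrel and beta rings inside it carry the proteolytic sites, while the cap recognises ubiquitin, removes it and uses ATPases to unfold the substrate and thread it into the core. After interferon signals, Psmb8, Psmb9 and Psmb10 replace the constitutive catalytic subunits Psmb5, Psmb6 and Psmb7 to form the immunoproteasome. In neurons proteasomes take part in protein turnover at synapses. When proteasome activity falls short, the transcription factor Nfe2l1 raises the subunit genes together through antioxidant response elements in their promoters.

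Promoter windows from RefSeq (GRCm38.p6), from 250 bases before to 50 bases after the start site, matched 32 of the 38 genes tested. The windows printed here are those of Psmc5, the subunit gene with the lowest p in the comparisons below, of the paired catalytic genes Psmb5 and Psmb8, which replace each other in the core, and of Psmb6 as another catalytic gene holding the same motif as Psmb5. Capitals mark a nuclear respiratory factor element in Psmc5 and the core of an antioxidant response element (TGACNNNGC) in Psmb5 and Psmb6; in the Psmb8 window none of the motifs searched was found, so no letter is in capitals.
Psmc5 (chr11:106255935-106256234, plus strand): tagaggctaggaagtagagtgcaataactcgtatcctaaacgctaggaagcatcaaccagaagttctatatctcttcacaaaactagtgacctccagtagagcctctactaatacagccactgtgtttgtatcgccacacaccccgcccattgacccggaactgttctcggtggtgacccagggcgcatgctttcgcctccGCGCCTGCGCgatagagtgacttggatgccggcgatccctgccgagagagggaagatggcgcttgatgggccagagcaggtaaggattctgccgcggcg
Psmb5 (chr14:54617946-54618245, minus strand): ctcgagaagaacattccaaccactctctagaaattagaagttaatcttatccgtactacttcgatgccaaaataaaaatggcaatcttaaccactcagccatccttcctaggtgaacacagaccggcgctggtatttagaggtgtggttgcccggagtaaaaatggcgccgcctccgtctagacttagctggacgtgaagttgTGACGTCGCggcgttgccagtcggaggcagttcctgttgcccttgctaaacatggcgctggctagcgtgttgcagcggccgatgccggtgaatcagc
Psmb6 (chr11:70525107-70525406, plus strand): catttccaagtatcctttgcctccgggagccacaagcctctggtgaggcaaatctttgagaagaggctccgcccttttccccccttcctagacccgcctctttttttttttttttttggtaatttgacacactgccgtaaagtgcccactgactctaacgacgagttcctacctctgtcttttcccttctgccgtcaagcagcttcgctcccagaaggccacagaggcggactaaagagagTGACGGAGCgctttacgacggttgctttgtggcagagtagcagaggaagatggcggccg
Psmb8 (chr17:34197945-34198244, plus strand): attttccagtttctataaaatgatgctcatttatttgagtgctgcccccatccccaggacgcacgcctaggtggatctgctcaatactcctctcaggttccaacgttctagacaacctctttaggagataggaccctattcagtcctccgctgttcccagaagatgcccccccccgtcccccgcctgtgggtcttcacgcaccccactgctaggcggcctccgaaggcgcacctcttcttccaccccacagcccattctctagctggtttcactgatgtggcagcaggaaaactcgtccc

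Both strands of all 32 windows were searched for these elements, for the interferon regulatory factor element and for the CCAAT box, and the search was repeated over the 32851 promoter windows of the table. The antioxidant response element core lay in 5 of 32 windows (Psmb5, Psmb6, Psmc6, Psmd9 and Psmd12), against 12.4% of all windows. In Psmb5 it began at position -47 from the start site and in Psmb6 at -9. The nuclear respiratory factor element lay in 6 of 32 windows (Psma2, Psma3, Psma4, Psmc4, Psmc5 and Psmd14), against 4.6% of all windows, and in Psmc5 it began at -49. The interferon element lay in Psmb3, Psmd4 and Psmd9, that is 3 of 32 against 3.44%, and the CCAAT box in 13 of 32 against 37.4%. These are matches of letters in windows, and factor binding was not measured.

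The arrays were of uneven quality, which bears on the values below. Spots well above background in the hemibrain channel numbered from 17720 on ERD 1 to 31991 on BLD 4, and the median correlation of an array with the others was lowest for ERD 1 at 0.88. Brain markers were present: the oligodendrocyte gene Mag had ratios of 4.32 to 5.52 and the astrocyte gene Aldoc 3.15 to 4.57. Not every marker stood above the reference, and the astrocyte gene Gja1 ran from -1.13 to -0.32. The neuronal gene Map2 ranged from 3.24 to 6.43 on 14 arrays and was 0.48 on ERD 1. Other neuronal genes were split on ERD 1: Nefm had its lowest ratio there (1.69) and Syt1 its highest (8.93). Because ERD 1 stood apart in detection, correlation and Map2, differences without it are given for Psma5 and Psmb1 against STD and for Psmd4 against BLD. Without ERD 1 the median difference from STD was -0.07 over core genes and 0.09 over cap genes. Other values include ERD 1 unless single arrays were left out. Among them are those of Psmd3 and Psmd4 against STD, where ERD 1 was the highest array. Slides and scan days were not balanced over the diets. The 15 arrays lay on 8 slides, and the second scan day held ERD 4, BLD 2, BLD 3 and BLD 4 and no STD array.

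Among the subunits, hemibrain RNA stood furthest above the cell line reference for Psmc5, an ATPase of the cap base, with a mean log2 ratio of 1.74 ± 0.28 (SD, n = 15), and next for Psmb5 (0.68), Psmc1 (0.62) and Psmc3 (0.60). It stood furthest below for the immunoproteasome genes Psmb8 (-2.32 ± 0.30) and Psmb9 (-2.23 ± 0.26), followed by Psmb1 (-1.63) and Psma6 (-1.45). The third immunoproteasome gene, Psmb10, was on the other side, at 0.48 ± 0.32. The median ratio over the 38 genes was -0.52, over the core -0.64 and over the cap -0.23, beside 0.13 over the 22580 genes tested. Within the alpha ring the range ran from Psma6 (-1.45) to Psma2 (-0.23), in the constitutive beta ring from Psmb1 to Psmb5, among the ATPases from Psmc6 (-1.16) to Psmc5, among the other base subunits from Psmd2 (-0.15) to Psmd4 (0.41), in the lid from Psmd14 (-1.23) to Psmd13 (0.20) and among the base chaperones from Psmd5 (-1.18) to Psmd9 (-0.75). These ratios depended on the probe. Dimmer probes gave 0.26 for Psmb5 and 0.12 for Psmc3. They gave -1.48 for Psma4, -0.25 for Psmd12 and -0.22 for Psmd9, beside -0.64, -0.96 and -0.75 for the probes used. For Psmc1 (0.64), Psmc2 (-0.22) and Psmd10 (-0.78) they lay nearer to the probe used. Hemibrain RNA carried Cy5 on every array, so dye and tissue cannot be told apart in a ratio. The plot of ratios by gene and diet shows how small the distances between diets were beside the distances between genes. Across arrays, the SD over 15 arrays had a median of 0.32 for the members and 0.27 for all genes, and 12 of 38 members lay below the latter.

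**Figure D1:**
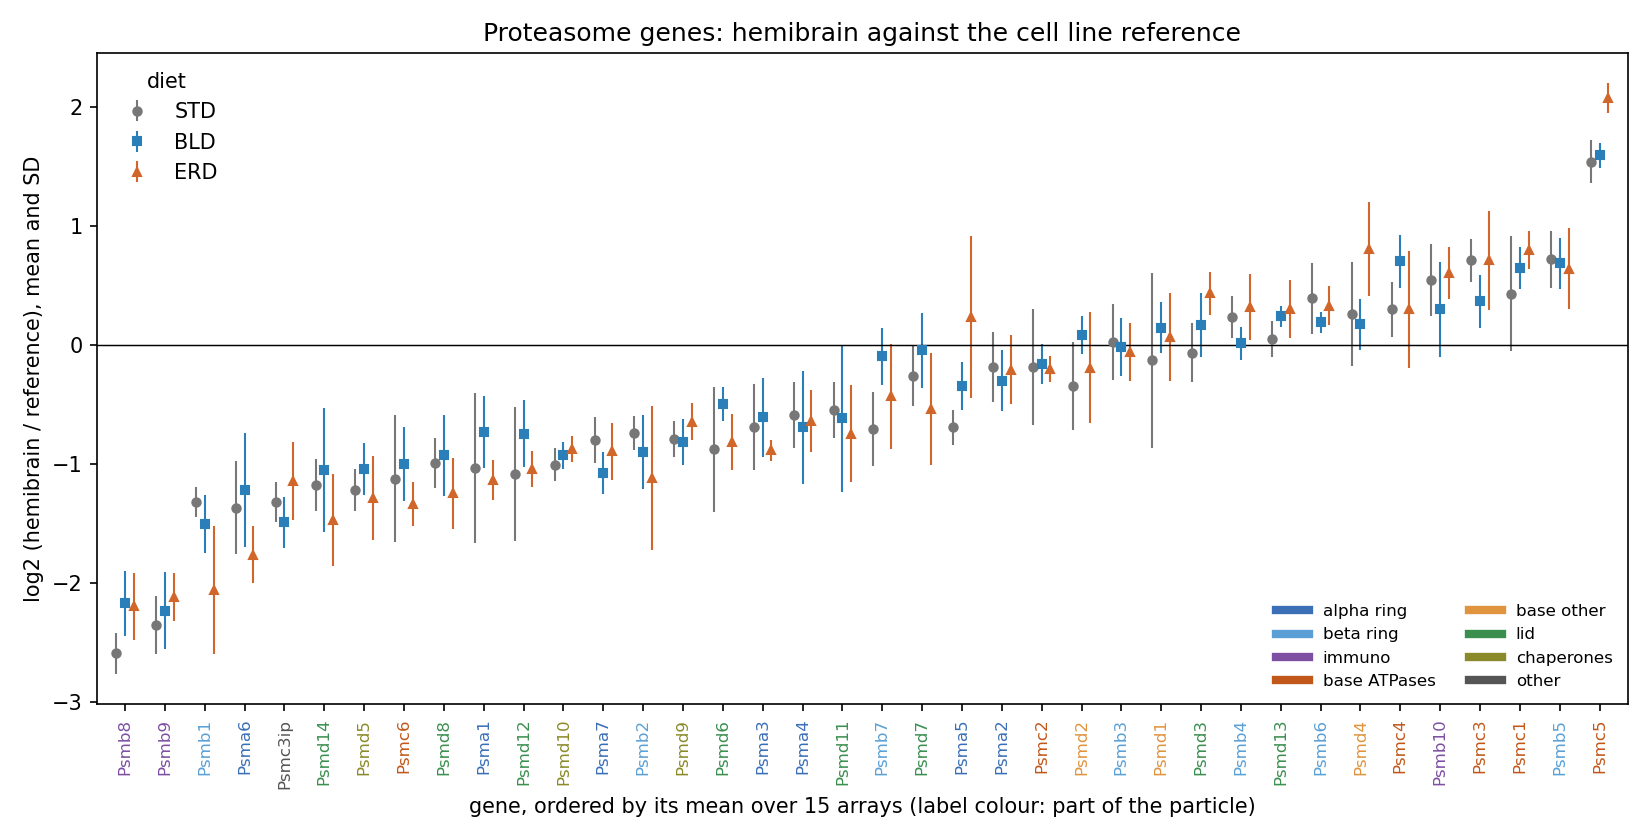
Log2 ratio of hemibrain over cell line reference for the 38 proteasome genes tested, as mean and SD over 5 arrays per diet (grey circles STD, blue squares BLD, orange triangles ERD), ordered by the mean over 15 arrays, with label colours for the place in the particle. Psmb8 and Psmb9 lie lowest at -2.32 and -2.23 and Psmc5 highest at 1.74.

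In ERD against STD, no proteasome gene passed the threshold of an adjusted p under 0.05, and subunits lay on both sides of 0 in the core and in the cap. The nearest to the threshold was Psmc5, higher under ERD by 0.54 on the log2 scale, while the core genes Psma5 (0.93) and Psmb1 (-0.74) had the largest differences, in opposite directions. Across the transcriptome 0.217% of the genes tested passed (49 of 22580), so a count of 0 among 38 is near the background. At an unadjusted p under 0.05 there were 7 of 38 members (18.4%), beside 14.6% of all genes, a share near the background. Of the 7, 6 were higher under ERD (Psmc5, Psma5, Psmd3, Psmd4, Psmb8 and the lid subunit Psmd13), beside 7.09% of all genes, and Psmb1 was lower, beside 7.53%. The F test over the 3 diets also called 0 members, beside 0.0487% of all genes, and at an unadjusted p under 0.05 it held 7 of 38, beside 13.5%.

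The median difference over all 38 genes was 0.00, with 19 higher and 19 lower, beside 0.02 over all genes, of which 52.9% were higher and 47.1% lower. The core median was -0.06 (6 of 17 higher) and the cap median 0.05 (12 of 20 higher). The cap median changed sign to -0.04 without STD 5, to -0.05 when arrays were median-centred in place of loess, and to -0.0088 with slide as a fixed block. The core median stayed below 0 in those settings and was 0.00 without STD 2. By place in the particle, 6 of 7 alpha ring genes were lower (median -0.10) and 5 of 7 constitutive beta ring genes (median -0.08, but 0.03 without STD 5). All 3 immunoproteasome genes were higher (median 0.24), although 1 of the 3 was lower with median centring or with Cy5 alone. The ATPases split 3 and 3 (median 0.00) and the lid 4 and 4 (median -0.08). In bulk tissue fewer cells of a type and less RNA per cell cannot be told apart.

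Psmc5, also called Rpt6 or Sug1, is a motor ATPase of the cap base. Its ratios were 2.17, 2.08, 1.87, 2.08 and 2.19 under ERD, 1.49, 1.63, 1.66, 1.72 and 1.47 under BLD, and 1.46, 1.70, 1.67, 1.61 and 1.27 under STD. The lowest ERD array lay above the highest array of both other diets, whose ranges overlapped each other. Groups that did not overlap in this comparison made up 3.79% of all genes and 2 of 38 members (5.26%), Psmc5 on the higher side (1.96% of all genes) and Psmb1 on the lower (1.82%). The difference from STD was 0.54 ± 0.11 (SE; 1.45-fold, 95% interval 0.31 to 0.77), with an unadjusted p of 0.000129 and an adjusted p of 0.0538 in limma's moderated test. The F test for Psmc5 gave an adjusted p of 0.0862. Adjusted p in ERD against STD ranged from 0.029 to 0.785 over 32 alternative settings, 5 of which put it under 0.05. The direction was the same in all 32 settings. The hemibrain channel alone gave 0.59 (adjusted p = 0.0518), the reference channel 0.11 (unadjusted p = 0.181), and the scanner software's own ratio 0.38 (adjusted p = 0.164). The pairs of arrays on shared slides gave 0.38, 0.42 and 0.58, and with slide as a fixed block the difference was 0.44 (adjusted p = 0.465).

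Psma5 encodes a subunit of the alpha ring. Its ratios were 1.08, 0.60, -0.72, 0.29 and -0.07 under ERD, -0.21, -0.25, -0.13, -0.58 and -0.53 under BLD, and -0.83, -0.48, -0.64, -0.67 and -0.84 under STD. Of the ERD arrays 4 lay above every other array, while ERD 3 fell among the STD values. The difference from STD was 0.93 ± 0.24 (1.9-fold, adjusted p = 0.122). Without ERD 3 it was 1.17 with an adjusted p of 0.0298, and Psmc5 then had 0.0394, so that 2 members passed in place of 0. Without ERD 1 it was 0.72 (adjusted p = 0.157).

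Psmb1 encodes a constitutive, non-catalytic beta subunit. Its ratios were -2.68, -2.58, -1.58, -1.88 and -1.59 under ERD, -1.58, -1.39, -1.90, -1.31 and -1.36 under BLD, and -1.38, -1.25, -1.32, -1.17 and -1.49 under STD. Every ERD array lay below every STD array, and ERD 1 and ERD 2 lay far below the rest. The difference was -0.74 ± 0.21 (1.67-fold lower, 95% interval -1.18 to -0.30, adjusted p = 0.143), and -0.59 without ERD 1 (adjusted p = 0.198). Within the shared slides it was -1.33, -0.20 and -0.42, so the slide that carried ERD 2 gave the largest distance.

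Psmd3 and Psmd4 belong to the cap. Psmd3 is a structural subunit of the lid, and its ratios were 0.60, 0.37, 0.55, 0.49 and 0.15 under ERD, -0.17, 0.28, -0.03, 0.50 and 0.27 under BLD, and 0.07, 0.01, 0.20, -0.16 and -0.44 under STD. ERD overlapped STD only through ERD 5. The difference was 0.50 ± 0.15 (adjusted p = 0.169). Psmd4 is the ubiquitin receptor also called Rpn10, and its ratios were 1.44, 0.85, 0.37, 0.69 and 0.69 under ERD, 0.54, 0.15, -0.01, 0.12 and 0.06 under BLD, and 0.14, 0.46, 0.63, 0.53 and -0.44 under STD. ERD 1 was the highest array and STD 5 the lowest. The difference was 0.54 ± 0.21 (adjusted p = 0.264). The plot of single arrays shows these genes side by side.

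**Figure D2:**
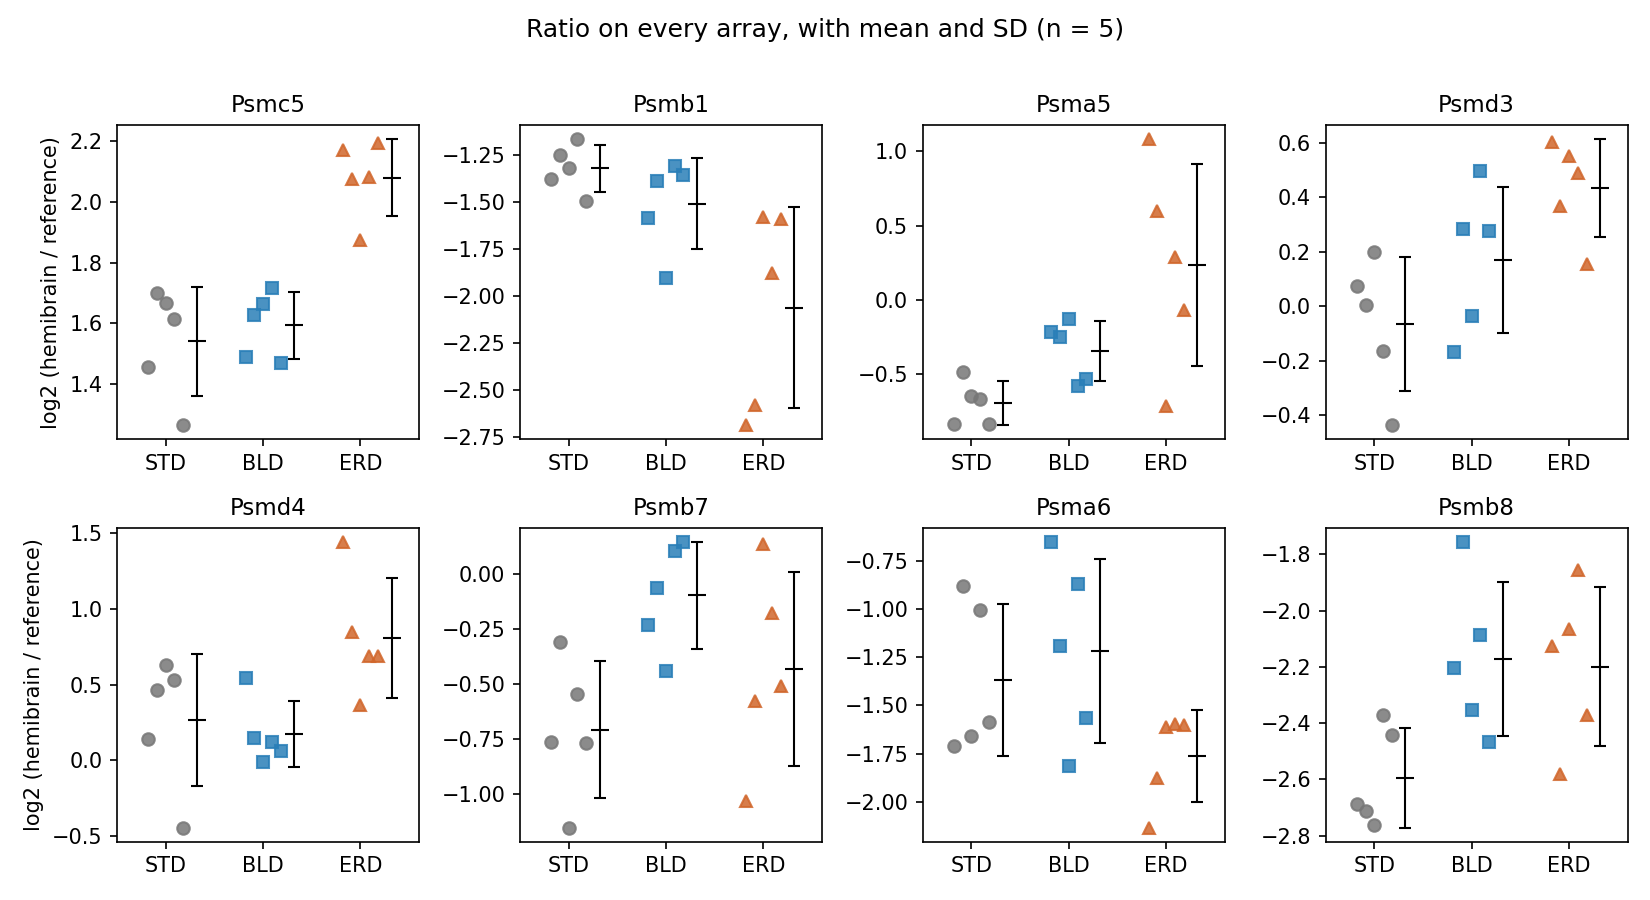
Log2 ratio of hemibrain over reference on every array for 8 proteasome genes, with mean and SD (n = 5) beside each diet; the vertical axes differ between panels. The 5 ERD arrays of Psmc5 lie at 1.87 or higher and no other array exceeds 1.72.

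The catalytic subunits and their immunoproteasome counterparts were followed by rule. Psmb5, the chymotrypsin-like subunit, ran from 0.26 to 0.96 under ERD (median 0.73), from 0.46 to 1.00 under BLD (0.72) and from 0.37 to 0.95 under STD (0.81), with full overlap and a difference from STD of -0.08 ± 0.17. A dimmer probe of the same gene gave 0.62, so its probes disagree. Psmb6, the caspase-like subunit, ran from 0.11 to 0.56 (median 0.35), 0.09 to 0.32 (0.17) and 0.12 to 0.76 (0.25) in the same order, and differed from STD by -0.06 ± 0.13. Psmb7, the trypsin-like subunit, ran from -1.03 to 0.14 (median -0.51) under ERD, from -0.44 to 0.14 (-0.06) under BLD and from -1.15 to -0.31 (-0.76) under STD, and differed from STD by 0.28 ± 0.20 under ERD. None of these 3 had an unadjusted p under 0.05 in this comparison.

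Psmb8, which takes the place of Psmb5, ran from -2.58 to -1.85 (median -2.13) under ERD, from -2.47 to -1.76 (-2.20) under BLD and from -2.76 to -2.37 (-2.69) under STD. The STD arrays lay lowest, with ERD 2 and BLD 5 inside their range. The difference under ERD was 0.40 ± 0.16 (adjusted p = 0.265). Psmb9, the counterpart of Psmb6, ran from -2.35 to -1.95 under ERD, -2.68 to -1.83 under BLD and -2.69 to -2.07 under STD, a difference of 0.24 ± 0.16 under ERD. Psmb10, the counterpart of Psmb7, ran from 0.38 to 0.84, -0.39 to 0.65 and 0.30 to 1.07 in the same order, a difference of 0.05 ± 0.19. Psmb8 and Psmb9 are expressed by microglia and other immune cells and respond to interferon. Of 7 interferon response genes tested, 4 were higher under ERD (median 0.02), and the mean deviation of the list from each gene's own mean ran from -0.08 to 0.10 on ERD arrays, -0.12 to 0.27 on BLD arrays and -0.18 to -0.01 on STD arrays. Of 8 microglial genes, 3 were higher under ERD (median -0.17), with list means of -0.29 to 0.10, -0.16 to 0.27 and -0.19 to 0.05. Their part in the values of Psmb8 was not tested.

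In BLD against STD, which shares the STD arrays with the comparison above, again no member passed. Of the cap genes 16 of 20 and of the core genes 7 of 17 were higher under BLD. The difference between these counts was not tested, and with median centring they were 20 of 20 and 17 of 17. Probe choice mattered too. Dimmer probes had the opposite sign for Psma4 (0.34), Psmb5 (0.47), Psmc3 (0.43), Psmd9 (0.25), Psmc2 (-0.10) and Psmd10 (-0.09). For Psmc1 and Psmd12 the sign was the same. The smallest adjusted p was 0.396, for Psmb7. The background was 0.00886% of genes past the adjusted threshold (2 of 22580), and at an unadjusted p under 0.05 it was 10.8%, beside 2 of 38 members (5.26%), Psmb7 and Psmb8, both higher under BLD. In the higher direction the background was 7.75% and in the lower 3.07%. Groups did not overlap for 0 of 38 members, beside 2.89% of all genes (2.16% higher and 0.731% lower).

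The cap median was 0.15, the core median -0.04, and the median over all genes 0.05 with 60.6% higher and 39.4% lower. In the lid 7 of 8 genes were higher (median 0.20, but 0.059 with 6 of 8 higher in Cy5 alone), and of the 3 other base subunits 2 were higher (median 0.28, but -0.04 without STD 5). In the constitutive beta ring 1 of 7 was higher (median -0.16). These medians depended on single arrays and on the scaling: the cap median was 0.04 without STD 5 (13 of 20 higher) and -0.014 with slide as a fixed block, the lid median was 0.13 without STD 5, and the core median 0.03 without BLD 5. Median centring in place of loess moved the median of all genes by 0.12 and put every core and cap gene tested above STD. Cy5 alone gave 6 of 17 and 13 of 20.

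The array STD 5 was the lowest of the 15 for 15 of 38 members, 12 of them in the cap. The mean deviation of cap genes from their own means was -0.44 on that array and between -0.13 and 0.21 on the other 14, while for core genes it was -0.07. The parts of the particle differed there. On STD 5 the alpha ring genes of the core stood at -0.40, their lowest array, and the constitutive beta ring and immunoproteasome genes at 0.15 and 0.21. Within the cap the ATPases stood at -0.53, the other base subunits at -0.97 and the lid at -0.33, and the chaperones at -0.04. Psmd1, a large scaffold of the base, had a ratio of -1.37 on STD 5 and between -0.32 and 0.47 elsewhere, and Psmc2 had -1.02 there and -0.39 or higher elsewhere. The pattern is plain in the plot of core and cap by array. STD 5 was alone on its slide among these arrays, so slide and array cannot be told apart. On STD 5 the lists of neuronal, oligodendrocyte and astrocyte genes had mean deviations of -0.10, 0.09 and 0.21. The astrocyte mean was the highest of any array, and the other means lay within the range of the other arrays. The median deviations there were 0.35, 0.20 and 0.31, each the highest of the 15 arrays. The part of these lists in the cap values was not tested.

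**Figure D3:**
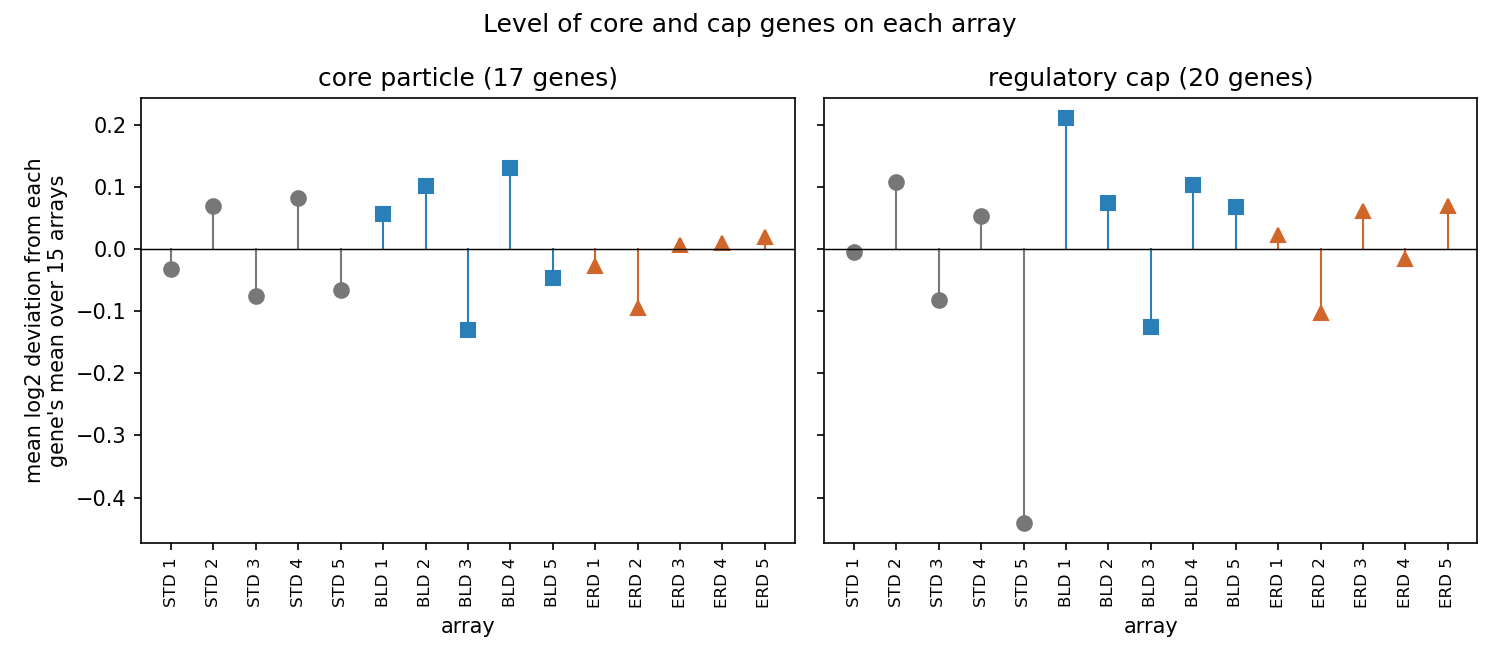
Mean log2 deviation of the 17 core genes (left) and 20 cap genes (right) from each gene's mean over 15 arrays, with 1 point per array, coloured by diet. Cap genes lie at -0.44 on STD 5 and between -0.13 and 0.21 on the other arrays.

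Psmb7 had the lowest p in this comparison. Its ratios were -0.23, -0.06, -0.44, 0.11 and 0.14 under BLD and -0.76, -0.31, -1.15, -0.55 and -0.77 under STD, with overlap only between BLD 3 and STD 2. The difference was 0.61 ± 0.20 (1.53-fold, 95% interval 0.18 to 1.04, adjusted p = 0.396). Part of it lay in the reference channel: Cy5 alone gave 0.24 and Cy3 alone -0.29 (unadjusted p = 0.0295), and every array carried the same reference pool. Psmb8 differed by 0.42 ± 0.16 (adjusted p = 0.42), with 0.12 in Cy5 alone and -0.28 in Cy3 alone, and by 0.07 with slide as a fixed block.

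Psma7, an alpha ring subunit, had ratios of -1.35, -1.04, -0.85, -1.10 and -1.03 under BLD and -0.70, -0.69, -1.08, -0.60 and -0.92 under STD, with STD 3 and STD 5 inside the BLD range. The difference was -0.28 ± 0.14 (adjusted p = 0.47), and 0.04 with median centring. Psmd2, a base scaffold also called Rpn1, had ratios of -0.05, 0.22, -0.06, 0.29 and 0.01 under BLD and -0.04, 0.01, -0.67, -0.21 and -0.80 under STD. STD 3 and STD 5 lay far below the BLD range, STD 4 just below it, and STD 1 and STD 2 inside it. The difference was 0.42 ± 0.21 (adjusted p = 0.472), and 0.31 without STD 5.

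In ERD against BLD no member passed, and the background was 0 of 22580 genes (0%). At an unadjusted p under 0.05 there were 8 of 38 members (21.1%), beside 10.4% of all genes. Higher under ERD were Psmc5, Psmd4, Psma5, the beta ring subunit Psmb4 and Psmc3ip, beside 2.64% of all genes, and lower were Psmb1, Psma6 and the lid subunit Psmd7, beside 7.75%. Psmc3ip was well above background on 2 of 5 ERD and 2 of 5 BLD arrays. In Cy5 alone it differed by -0.02 (unadjusted p = 0.674 in limma). Without Psmc3ip the count was 7 of 37 (18.9%). Groups did not overlap for 3 of 38 members (7.89%), beside 1.37% of all genes. On the higher side this was Psmc5 (0.35% of all genes) and on the lower side Psma1 and Psmd12 (1.02%). The alpha ring gene Psma1 ran from -1.40 to -0.98 under ERD and from -0.93 to -0.20 under BLD, a difference of -0.40 (adjusted p = 0.571). The lid gene Psmd12 ran from -1.30 to -0.94 under ERD and from -0.92 to -0.25 under BLD, a difference of -0.29 (adjusted p = 0.659). In both, the STD arrays spanned the ERD and much of the BLD range, and STD 5 was the lowest array at -1.97. A dimmer probe of Psmd12 gave -0.09. This comparison and the first share the ERD arrays.

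The median was -0.04 over the 38 genes and over all genes alike, -0.03 in the core (8 of 17 higher) and -0.10 in the cap (8 of 20 higher; 0.0249 within slide 1). Of all genes 41.9% were higher and 58.1% lower. The lid stood lowest, with 6 of 8 genes lower and a median of -0.31, and it kept a median below 0 under the 5 other scalings tried, from -0.65 to -0.13. The core median changed sign without ERD 2 (0.07), ERD 4 (0.04), ERD 5 (0.02), BLD 1 (0.01) or BLD 2 (0.08). It also did so in the scanner software's ratio (0.05) and in Cy5 alone (0.09). Median centring moved the median of all genes by -0.16 and left 1 of 17 core and 2 of 20 cap genes higher.

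Psmc5 exceeded BLD by 0.49 ± 0.11 (1.4-fold, 95% interval 0.26 to 0.71, adjusted p = 0.247). Within shared slides the distances were 0.44, 0.68 and 0.72, and with median centring 0.07. Psmd4 exceeded BLD by 0.63 ± 0.21 (adjusted p = 0.389), with BLD 1 inside the ERD range. It was 0.48 without ERD 1 and 0.17 with median centring. Psma5 exceeded BLD by 0.58 ± 0.24 (adjusted p = 0.45).

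Psmb1 was lower than under BLD by a difference of -0.55 ± 0.21 (adjusted p = 0.426), and BLD 1 and BLD 3 lay inside the ERD range. Psma6, an alpha ring subunit, had ratios of -2.13, -1.88, -1.61, -1.59 and -1.60 under ERD, -0.65, -1.19, -1.81, -0.87 and -1.56 under BLD, and -1.71, -0.88, -1.66, -1.01 and -1.58 under STD. The 5 ERD arrays lay within or below the lower end of both other diets, whose values were widely spread. The difference from BLD was -0.55 ± 0.22 (adjusted p = 0.447). Within the shared slides it was -0.09, -1.48 and -0.04, the largest being the pair of ERD 1 and BLD 1.

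The intervals show what 5 arrays per diet could resolve. For the cap the 95% interval of the difference lay within 2-fold for 20 of 20 genes under either diet against STD, and for 19 of 20 between ERD and BLD. For the core this held for 15, 16 and 15 of 17 genes. The tighter limit of 1.5-fold was met by 9, 9 and 6 cap genes and by 10, 9 and 8 core genes, and for the remaining subunits the interval reached past 1.5-fold. The plot of differences and intervals gives all 38 genes.

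**Figure D4:**
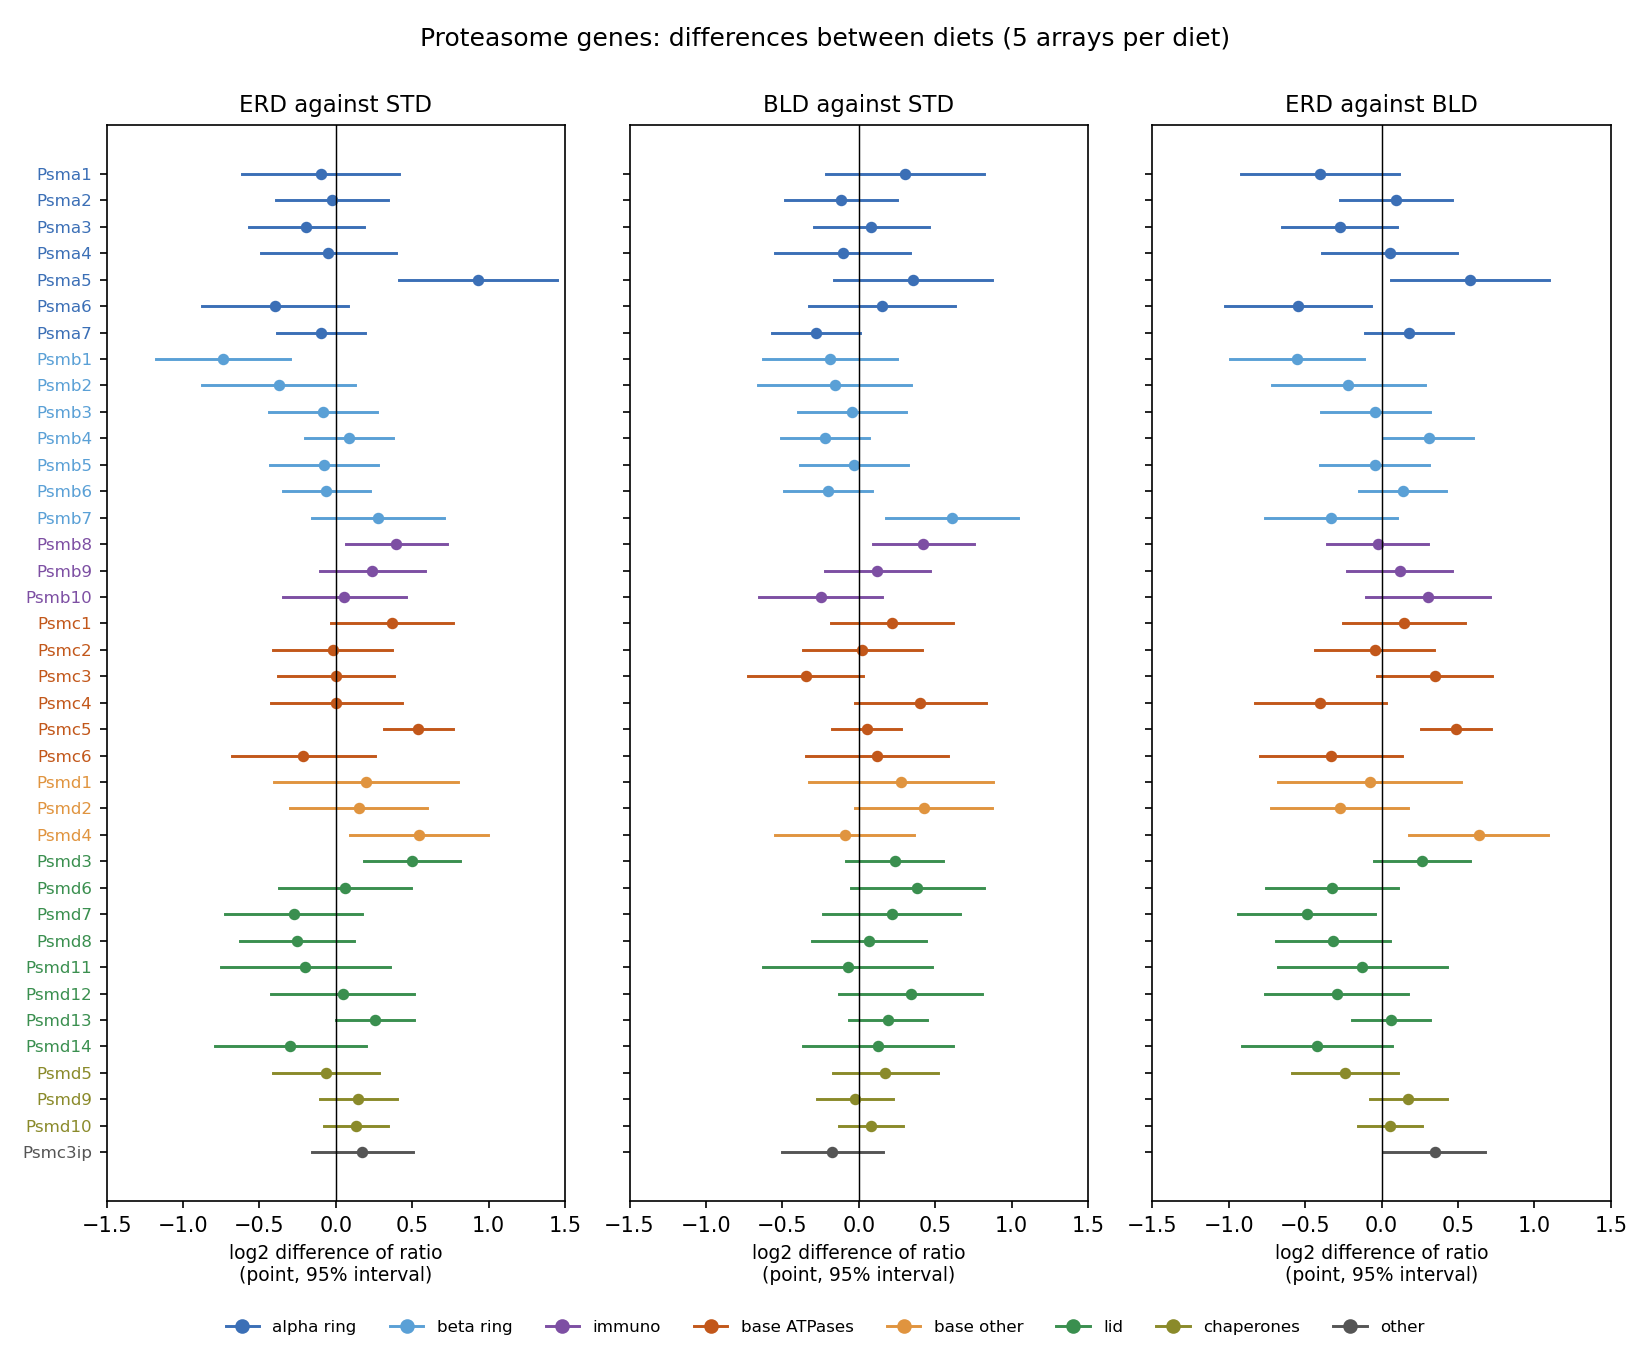
Difference of log2 ratio between diets for 38 proteasome genes in 3 comparisons, with the point at the fitted difference and the bar its 95% interval; colours mark the place in the particle. In ERD against STD the bars of 7 genes do not reach 0, among them Psma5 at 0.93, Psmc5 at 0.54 and Psmb1 at -0.74, and no gene passed the adjusted threshold.

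Genes around the particle were followed in a list of 37 tested genes: the activators, the inhibitor Psmf1, the assembly factors, the ubiquitin receptors and shuttles, the ubiquitin genes and the regulators of proteasome synthesis. In limma 0 of 37 passed at an adjusted p under 0.05 in each of the 3 comparisons. At an unadjusted p under 0.05 3 were higher and 2 lower under ERD than under STD (13.5%, beside 14.6% of all genes). For BLD relative to STD the counts were 4 and 3 (18.9%, beside 10.8%), and for ERD relative to BLD 1 and 2 (8.11%, beside 10.4%). The shares of all genes by direction are those given above for each comparison. The list's medians were -0.05, 0.01 and 0.01, and with median centring -0.09, 0.26 and -0.28.

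Psme1, the alpha subunit of the interferon-inducible activator that can replace the cap on the core, stood beside Psmc5 in ERD against STD. Its ratios were -0.36, -0.37, -0.60, -0.30 and -0.66 under ERD, -0.68, -0.64, -0.59, -0.69 and -0.73 under BLD, and -0.998, -1.004, -0.88, -1.06 and -0.80 under STD. Every STD array lay below every array of both other diets, and ERD overlapped BLD. Groups did not overlap for 1 of 37 genes of the list (2.7%) in either comparison against STD. Among all genes the shares were 3.79% for ERD and 2.89% for BLD. The difference from STD was 0.49 ± 0.10 under ERD (1.41-fold, adjusted p = 0.0538) and 0.28 ± 0.10 under BLD (adjusted p = 0.4). For ERD the adjusted p ran from 0.0193 to 0.801 over 32 settings, 6 of which put it under 0.05, and the direction was the same in all 32. The shared slides gave 0.64, 0.39 and 0.40. Its partner Psme2 was not analysed here. Psme2b, in the same list, ran from -1.85 to -1.51 on ERD 2 to ERD 5, with ERD 1 at -0.51, and from -1.66 to -0.93 under STD.

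Adrm1, the ubiquitin receptor also called Rpn13, was higher under ERD than STD by 0.48 ± 0.16 (adjusted p = 0.193), with ERD 1 at -0.34 inside the STD range. Sem1, the smallest lid subunit, differed by -0.45 ± 0.14 in BLD against STD (adjusted p = 0.369). In ERD against BLD the lowest p belonged to Zfand5, a proteasome activator induced in wasting muscle, at -0.42 ± 0.17 (adjusted p = 0.442), and Psme3ip1, which binds the nuclear activator Psme3, at -0.23 ± 0.11 (adjusted p = 0.474). Nfe2l1 itself differed by -0.22 ± 0.19 in ERD against STD and by 0.01 in BLD against STD, with arrays of all diets interleaved. Pomp, the chaperone of core assembly, differed by -0.15 ± 0.10 and -0.18 ± 0.10.

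Markers of brain cell types also had different values between diets, and no marker passed the adjusted threshold. In ERD against STD 7 of 8 neuronal genes (median -0.28) and 7 of 8 oligodendrocyte genes (median -0.25) were lower, and the list means on ERD arrays ran from -0.70 to 0.01 and from -0.65 to -0.03, with ERD 1 lowest in both, beside -0.10 to 0.33 and -0.01 to 0.15 on STD arrays. Of 8 astrocyte genes 2 were higher (median -0.13), with differences from -0.61 to 1.04. The highest, Gfap, ran from 2.94 to 4.27 under ERD, 3.16 to 4.44 under BLD and 2.16 to 3.11 under STD. The neuronal genes differed by -1.89 to 1.38. Their highest, Snap25, ran from 2.77 to 5.43 under ERD and from 1.69 to 2.52 under STD. With array weights, an alternative setting, the adjusted p in limma was 0.0295 for Gfap and 0.0469 for Bst2. In BLD against STD 5 of 5 blood genes were higher (median 0.30), with list means of -0.35 to 0.60 on BLD arrays. Endothelial genes had a median of -0.20 for ERD and 0.02 for BLD, each relative to STD. The gene of lowest p in each list was Mag (-0.65 ± 0.14, BLD against STD), Aldoc (-0.73 ± 0.17, BLD against STD), Map2 (-1.98 ± 0.67, ERD against BLD), Hbb-b1 (-1.23 ± 0.36, ERD against BLD), Cdh5 (-0.75 ± 0.24, ERD against BLD), P2ry12 (0.53 ± 0.22, BLD against STD) and the interferon-induced Bst2 (0.54 ± 0.14, ERD against STD), with adjusted p of 0.128 or more. In the comparisons named, the list medians were 0.03 for oligodendrocyte, -0.10 for astrocyte, -0.06 for neuronal and -0.22 for blood genes. They were -0.12 for endothelial, -0.12 for microglial and 0.02 for interferon response genes. Mag and P2ry12 thus lay on the other side of 0 from the median of their list. Map2 was 0.48 on ERD 1 and 3.24 to 5.25 on the other ERD arrays. The neuronal list on ERD 1 had a median deviation of -0.23, beside its mean of -0.70, and on BLD 5 the median was lower at -0.47. The part of cell composition in the proteasome values was not tested.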

How the data were processed

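Per the file headers, the deposited scanner files hold median pixel intensities of each spot and its background and processed intensities, quantified with Agilent Feature Extraction 11.5.1.1; the submitters' processing notes name 10.7. The deposited series values are log10 ratios of Cy5 over Cy3, equal to those in the scanner files. The build named in the file headers differs from that of the RefSeq tables, so coordinates are given for the RefSeq promoters alone.

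Median intensities were corrected with normexp (offset 50) and normalized by loess within arrays, with control spots at weight 0 and outlier spots (0.574%) left out, in limma 3.58.1 under R 4.3.3. Figures and motif searches used Python 3.11.15, pandas 2.3.3 and matplotlib 3.10.9. Spots of a probe were averaged. Probes were kept where Cy5 was well above background on 5 or more arrays and 8 or more values remained, with 1 probe per symbol (highest mean processed Cy5) and unnamed probes singly. This gave 22580 genes, 13786 with a symbol. Of 55681 probes 27656 had a symbol.

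A single limma fit of 15 arrays (12 residual degrees of freedom) gave 3 comparisons, 2-sided, and an F test, adjusted by Benjamini-Hochberg over all genes. SE and intervals come from that fit, SD from the arrays. The procedure was tested on simulated data. No count depth exists for arrays, and their number limits the precision. Members and lists were chosen with earlier results of these data known, and no list was tested as a set. The nuclear respiratory factor and interferon elements were searched as degenerate patterns and are given by name. Named with values were the 4 members of lowest p per comparison and the 6 catalytic genes; of the pathway list the 2 of lowest p per comparison with Psme1, Nfe2l1 and Pomp (the rule also held Psme2, not analysed here); and of each marker list the gene of lowest p. Psmd13, Psmb4, Psmd7, Psma1, Psma4, Psmd10, Psmd12, Psmd1 and Psmc2 were named after their values were seen. So were Psmb2, Psmc3, Psme2b and the markers Gfap, Snap25, Syt1, Nefm and Gja1. Alternatives covered normalization, filters, probe choice, blocks and each array left out.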

Additional observations from a re-analysis of the deposited data

Results flagged for a closer look

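Of 48 groups of 5 arrays checked, 3 held an array set apart from the others by a gap of more than 0.71 of the group's range, and chance alone flags about 1 group in 20. Psmd4, the ubiquitin receptor, had a ratio of 0.54 on BLD 1, and the next BLD array had 0.15. Psmb10, the immunoproteasome subunit, had -0.39 on BLD 1, with the nearest BLD array at 0.38. Psmb10 also had 1.07 on STD 5, with the nearest STD array at 0.50. STD 5 is the array on which the cap genes and the alpha ring genes of the core lay lowest, with mean deviations of -0.44 and -0.40, and Psmb10 was there the highest of its diet.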

How the results depend on the processing

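No paired analysis was possible because the replicate numbers only follow the order of the samples and the labels pair no samples across diets; arrays that shared a slide were compared within slides and with slide as a block. In ERD against STD the count of members past the adjusted threshold, 0, became 1 (Psmc5) without the background filter (adjusted p = 0.0375), with slide as a random block (0.0344), with array weights (0.029) and with Cy5 detection as a covariate (0.0366). With single arrays left out it ran from 0 to 2. The F test called 1 member with slide as a random block (adjusted p = 0.0489) and with array weights (0.0368). The other 2 comparisons called 0 members in all 32 settings.

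The core median in ERD against STD was -0.15 with median centring and -0.18, 0.097 and 0.0399 within slides 4, 5 and 7, and the cap median was -0.16 within slide 4; with single arrays left out they ran from -0.10 to 0.00 and from -0.04 to 0.14. In BLD against STD the core median was 0.29 with median centring, 0.0658 with scale normalization, -0.18 with Cy5 alone, 0.0828 with the mean over probes and -0.19 within slide 7. The cap median there was 0.37 with median centring, -0.014 with slide as a fixed block and -0.10 within slide 7. In ERD against BLD the core median was -0.40 with median centring, -0.11 with scale normalization, 0.0932 with Cy5 alone, 0.0668 with slide as a fixed block, 0.0737 within slide 1 and 0.10 within slide 7, and ran from -0.10 to 0.0781 with single arrays left out. The cap median, -0.10, was -0.46 with median centring, -0.36 within slide 3, -0.22 with scale normalization and -0.18 with scan day or slide as a fixed block, and 0.0249 within slide 1. In ERD against STD it was -0.0088 with slide as a fixed block. Psma7 in BLD against STD reversed to 0.0446 with median centring. The cause of these shifts was not tested. Psmc5 kept its direction in ERD against STD in all 32 settings, from 0.38 to 0.61. Signal over background limits Psmb2, measured above background on 13 arrays, and Psmc3ip on 9. For Psmb2 these were 3 of 5 ERD, 5 of 5 BLD and 5 of 5 STD arrays. Its difference in ERD against STD was -0.38 in the main fit and -2.19 in the scanner software's ratio.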
